A study of Homo sapiens with 6 samples.

Results

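Complex I (NADH:ubiquinone oxidoreductase) is the entry point of the mitochondrial respiratory chain. It passes electrons from NADH to ubiquinone and pumps protons across the inner membrane. Most of its subunits are made from nuclear genes, but the hydrophobic core of its membrane arm is encoded by mitochondrial DNA. MT-ND1 lies next to the ubiquinone site, MT-ND2, MT-ND4 and MT-ND5 are the antiporter-like proton pumping subunits, and MT-ND3, MT-ND4L and MT-ND6 are small subunits packed between them. The mitochondrial genome is transcribed from both strands as long precursors that are cut largely at tRNAs, so the mature mRNAs of neighbouring genes begin as parts of the same molecule and can then differ in their stability.

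The 7 genes were taken by name from the deposited table and are all the complex I subunits of the mitochondrial genome. They make up 7 of the 62438 gene rows in the table, and all 7 passed the expression filter. RNA-seq libraries were available for 3 samples transfected with siRNA targeting human N6AMT1 (si-N6AMT1) and 3 with scrambled siRNA (si-CN). Both groups were breast cancer cells labelled MDA-MB-453, and both received 10 nM siRNA with Lipofectamine RNAiMAX for 48 h, so the control also carried transfection reagent and siRNA. The knockdown was transient, in a single cell line, and the sources describe triplicate cells without naming separate cultures. The p-values therefore rest on the spread between these libraries, which may be technical. Those of the count tests pool this spread in part over genes, so they do not measure the spread of each gene alone. N6AMT1 is known as a methyltransferase of translation release factor eRF1 and was studied here as a candidate adenine methyltransferase of DNA. The comparison asks how transcript levels change when N6AMT1 is lowered.

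N6AMT1 itself was at 6.81 ± 0.145 CPM (counts scaled to a common library size with TMM, mean ± SD, n = 3) in si-CN and 3.18 ± 0.312 CPM in si-N6AMT1, a log2 fold change of -1.10 (SE, the standard error, 0.119, and edgeR FDR = 3.65e-07, the Benjamini-Hochberg adjusted p of the quasi-likelihood test over all genes). Library totals ran from 19739247 to 21289740 counts. The labelled cell line is known as luminal, and its lineage markers were mixed. Of the luminal markers, KRT8 had 625.6 CPM, KRT18 473.3, EPCAM 303.8 and ERBB2 53.3, while FOXA1 had 8.37, GATA3 2.91 and KRT19 0.504 CPM. The basal keratins KRT17, KRT5 and KRT14, which go against the label, had 2832, 798.8 and 118.0 CPM. The summed luminal markers ranged from 1429 to 1464 CPM in si-CN and from 1483 to 1503 CPM in si-N6AMT1, and the summed basal markers from 3689 to 3774 CPM and from 3737 to 3824 CPM. All 3 basal markers had a count in every library. Some markers moved with the knockdown, with log2 fold changes of 0.18 for KRT14, 0.11 for KRT5, 0.12 for KRT8, 0.076 for KRT18 and -0.12 for EPCAM (edgeR FDR from 0.000126 for KRT8 to 0.0150 for KRT18). Of fibroblast, immune and endothelial markers COL1A1 was at 45.8 CPM, PTPRC at 0.0822 and CD3E at 0.0170 CPM, and their sum was 46.2 to 47.8 CPM in si-CN and 45.9 to 48.3 CPM in si-N6AMT1. The part of these markers in the results was not tested.

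On the mitochondrial chromosome of GRCh37, which has 16569 bases, 6 of the 7 genes lie on the plus strand. MT-ND1 (ENSG00000198888) is at chrM:3307-4262, downstream of the rRNA genes, and MT-ND2 (ENSG00000198763) is at chrM:4470-5511. MT-ND3 (ENSG00000198840) is at chrM:10059-10404, MT-ND4L (ENSG00000212907) at chrM:10470-10766 and MT-ND4 (ENSG00000198886) at chrM:10760-12137. MT-ND5 (ENSG00000198786) is at chrM:12337-14148, and MT-ND6 (ENSG00000198695) is at chrM:14149-14673 on the minus strand, the only mRNA encoded there. Each is a gene with a single exon and no intron. The first 27 bases of each gene, read 5′ to 3′ along its own strand from the GRCh37 reference, show how the reading frames open, with the start codon in capitals.
MT-ND1: ATAcccatggccaacctcctactcctc
MT-ND2: ATTaatcccctggcccaacccgtcatc
MT-ND3: ATAaacttcgccttaattttaataatc
MT-ND4L: ATGcccctcatttacataaatattata
MT-ND4: ATGctaaaactaatcgtcccaacaatt
MT-ND5: ATAaccatgcacactactataaccacc
MT-ND6: ATGatgtatgctttgtttctgttgagt
These lines cover chrM:3307-3333, chrM:4470-4496, chrM:10059-10085, chrM:10470-10496, chrM:10760-10786 and chrM:12337-12363 on the plus strand and chrM:14647-14673 on the minus strand. MT-ND1, MT-ND3 and MT-ND5 open with ATA and MT-ND2 with ATT, codons that mitochondria read as starts, and the others open with ATG. MT-ND6 stands apart in base composition, with 35.6% G in its mRNA strand against 9.50% to 12.1% in the 6 plus-strand genes.

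The 3′ ends are shown because the libraries were made with an mRNA kit that selects poly(A) tails. In 4 of the genes the reading frame stops before a whole stop codon is encoded, and the poly(A) tail is known to complete it. The last 27 bases of these 4 genes follow, with the encoded part of the stop codon in capitals.
MT-ND1: aatctccagcattccccctcaaaccTA
MT-ND2: tctccccttttatactaataatcttaT
MT-ND3: tacaaaaaggattagactgaaccgaaT
MT-ND4: ccgacatcattaccgggttttcctctT
They lie at chrM:4236-4262, chrM:5485-5511, chrM:10378-10404 and chrM:12111-12137. MT-ND4L and MT-ND5 end with a whole TAA, and MT-ND6 with AGG. The mRNA of MT-ND6 is known for carrying little or no poly(A) tail, so its level in such libraries need not stand for its level in the cell. At 2 places members touch each other. MT-ND4L and MT-ND4 share 7 bases and are known to stay together on 1 mRNA, and MT-ND5 and MT-ND6 meet end to end on opposite strands with a gap of 0 bases. The shared bases of the first pair, and the MT-ND6 part of the second, are in capitals on the plus strand at chrM:10750-10776 and chrM:14137-14160.
MT-ND4L/MT-ND4: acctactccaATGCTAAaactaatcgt
MT-ND5/MT-ND6: ctaatcacataaCCTATTCCCCCG
How reads that cross such a border were counted, or whether they were dropped, was not tested. The strand option of the counting is not given in the sources used here. Sense reads of MT-ND6 and antisense reads from the MT-ND5 side therefore cannot be told apart.

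Of the 7 members, 6 were downregulated in si-N6AMT1 cells, and MT-ND6 was the exception. The largest fitted fall was that of MT-ND3, which fell by 32.1%, and the smallest among those called was that of MT-ND4, which fell by 9.68%. The median log2 fold change of the members was -0.21, against 0.0039 over all 17320 genes tested. Over all these genes, 11.5% were called downregulated at an FDR under 0.05 by edgeR's quasi-likelihood test. For the same 6 members, every si-N6AMT1 library lay below every si-CN library, a pattern shown by 18.0% of all genes tested. edgeR called 0 members upregulated, with 0 at an unadjusted p under 0.05 and 0 by DESeq2, where 9.78% of all genes were called upregulated. For 0 members did every si-N6AMT1 library lie above every si-CN library, against 16.8% of all genes. All 6 calls were also made with each library left out in turn, with DESeq2 and with limma-voom. Since the libraries are bulk samples, fewer cells of a type and less RNA per cell cannot be told apart.

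MT-ND1, the subunit beside the ubiquinone site, was at 1994, 1841 and 1825 CPM in the si-CN libraries and at 1587, 1738 and 1615 CPM in the si-N6AMT1 libraries. The groups did not overlap, and the gap between the lowest control and the highest knockdown library was smaller than the spread within either group. The means were 1887 ± 92.8 and 1647 ± 80.4 CPM (SD, n = 3), a log2 fold change of -0.20 (SE 0.0306, 95% interval -0.26 to -0.13, edgeR FDR = 4.89e-05).

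Among the proton pumping subunits, MT-ND2 was at 1225, 1103 and 1114 CPM in si-CN and at 913, 1002 and 977 CPM in si-N6AMT1. Its groups did not overlap, with si-CN 1 well above the other 2 controls. Its mean fell from 1147 ± 67.5 to 964 ± 45.8 CPM (SD, n = 3), a log2 fold change of -0.25 (SE 0.0329, edgeR FDR = 5.12e-06). MT-ND4, the most abundant of the 7 transcripts, was at 4202, 3992 and 3813 CPM in si-CN and at 3458, 3775 and 3611 CPM in si-N6AMT1. Its highest knockdown library lay just below its lowest control. The log2 fold change was -0.15 (SE 0.0293, 95% interval -0.21 to -0.086, edgeR FDR = 0.000727). MT-ND5, the longest of the genes and the last antiporter-like subunit of the membrane arm, was at 1569, 1363 and 1576 CPM in si-CN and at 1189, 1256 and 1280.3 CPM in si-N6AMT1. Here si-CN 2 was the low control and the groups still did not overlap. The log2 fold change of MT-ND5 was -0.28 (SE 0.0373, edgeR FDR = 8.11e-06).

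Among the small subunits, MT-ND3 carries the loop at the joint between the membrane and matrix arms. It was at 386, 344 and 336 CPM in si-CN and at 238, 255 and 229.6 CPM in si-N6AMT1. Every knockdown library was below every control library, and the gap between the groups was wider than the spread within either. The mean of MT-ND3 fell by 32.1%, from 355 ± 26.8 to 241 ± 13.02 CPM (SD, n = 3), a log2 fold change of -0.56 (SE 0.0396, 95% interval -0.64 to -0.48, edgeR FDR = 4.73e-10). By edgeR, the nearest interval of another member was that of MT-ND5, -0.35 to -0.20, which did not reach it. DESeq2 gave larger SEs, 0.0756 for MT-ND3 and 0.0750 for MT-ND5, and the separation was not tested with these. MT-ND4L was at 507, 505 and 489.9 CPM in si-CN and at 428, 450.5 and 418 CPM in si-N6AMT1. Its control libraries were the tightest of any member, and the groups did not overlap. The log2 fold change of MT-ND4L was -0.21 (SE 0.0252, edgeR FDR = 1.38e-06).

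MT-ND6, the subunit from the minus strand, was at 347, 299 and 294 CPM in si-CN and at 278, 314 and 317 CPM in si-N6AMT1. The groups overlapped, since 2 knockdown libraries lay above 2 control libraries. The means were 313 ± 29.1 and 303 ± 21.4 CPM (SD, n = 3), and the log2 fold change was -0.045 with a 95% interval of -0.14 to 0.051 (SE 0.0466, edgeR FDR = 0.558). By edgeR, this interval overlapped that of MT-ND4, -0.21 to -0.086, and at its edge that of MT-ND1, -0.26 to -0.13. DESeq2 gave MT-ND6 a larger SE of 0.0901, and the difference of MT-ND6 from the other members was not tested with it. The sign of its value changed, to 0.033 without si-CN replicate 1 and to 0.013 without si-N6AMT1 replicate 1, so no direction is given for MT-ND6.

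**Figure D1:**
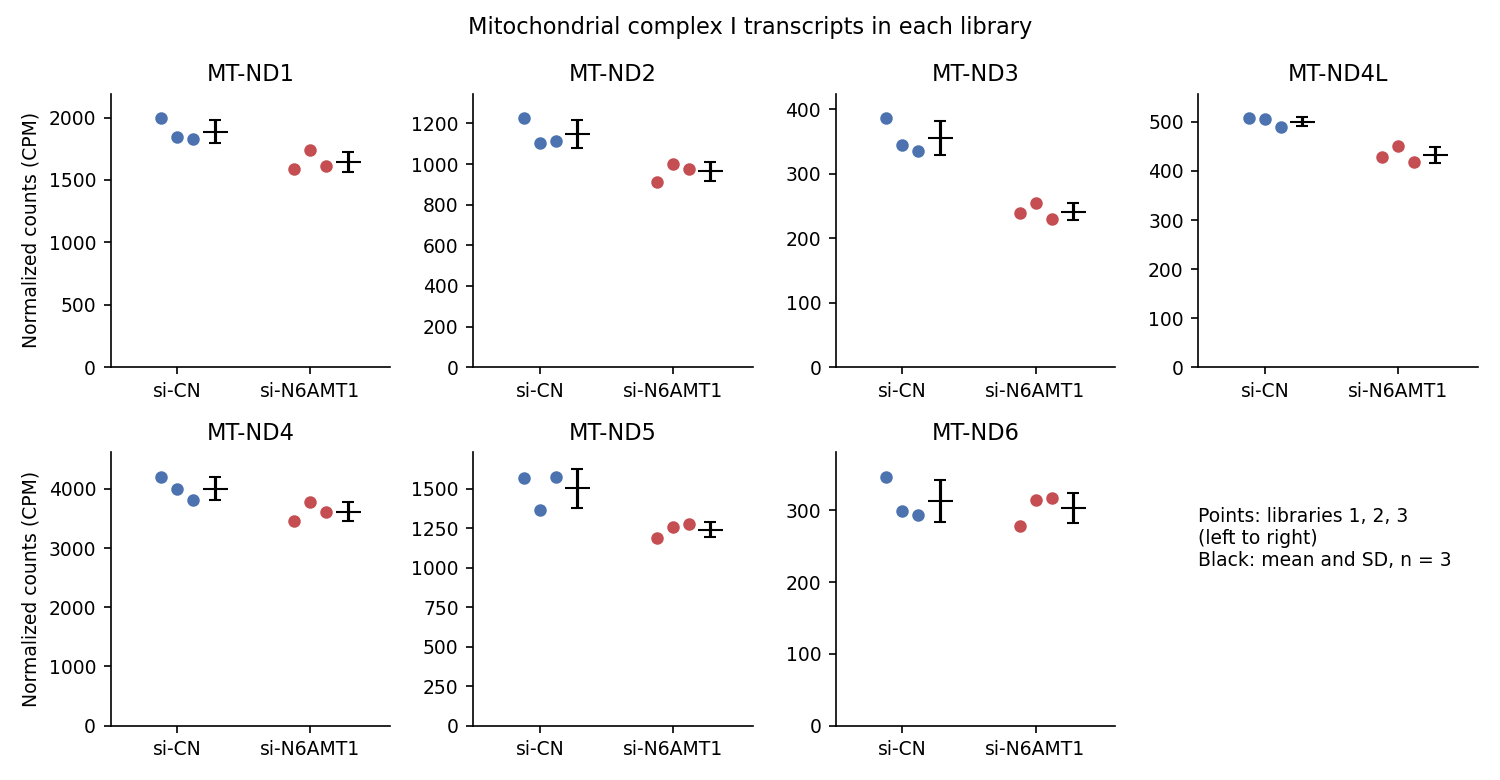
Level of each complex I mRNA in CPM (vertical axes, each starting at 0) in the 3 si-CN and 3 si-N6AMT1 libraries, with 1 point per library and the mean ± SD of each group. The 2 groups are apart for 6 members and overlap for MT-ND6, where si-N6AMT1 libraries reach 317 CPM against 294 CPM in the lowest control.

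The libraries moved in part together across members. Within si-CN, replicate 1 had the highest level for 6 of the 7 members and replicate 3 the lowest for 5. Within si-N6AMT1, replicate 2 was highest and replicate 1 lowest for 5 members each. Taken over the 7 genes, complex I mRNAs took 1.01%, 0.941% and 0.941% of all counts in si-CN and 0.813%, 0.879% and 0.846% in si-N6AMT1. The means were 0.965% ± 0.0408 and 0.846% ± 0.0332 (SD, n = 3), and an exact two-sided permutation test gave p = 0.1, the smallest value possible for 3 libraries against 3. All mitochondrial genes together took 3.72% ± 0.118 and 3.01% ± 0.0986 of counts.

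Read along the chromosome, the 2 rRNAs and 13 mRNAs did not move by the same amount. After the rRNAs, MT-RNR1 at -0.22 and MT-RNR2 at -0.33, the members MT-ND1 and MT-ND2 had log2 fold changes of -0.20 and -0.25. MT-CO1 and MT-CO2, subunits of cytochrome c oxidase, followed at -0.36 and -0.38. The next stretch held the largest fitted falls, with MT-ATP8 at -0.53, MT-ATP6 at -0.58, MT-CO3 at -0.55 and, as its last gene, MT-ND3 at -0.56. The genes MT-ATP8 and MT-ATP6 share 46 bases, so their values are not independent, and MT-ATP8 had only 341 to 598 counts per library. MT-ATP8 and MT-ATP6 encode subunits of ATP synthase and MT-CO3 a further oxidase subunit, so MT-ND3 is the complex I member of this run. Immediately beyond a single tRNA gene, MT-ND4L and MT-ND4 were at -0.21 and -0.15 and MT-ND5 was at -0.28. MT-CYB, the cytochrome b of complex III and the last mRNA on the plus strand, was at -0.50. All of these genes except MT-ND6 passed the test, and their groups did not overlap. MT-ND3 and its neighbour MT-CO3 had a ratio of counts of 0.225 ± 0.0122 in si-CN and 0.225 ± 0.0131 in si-N6AMT1, with overlap (SD, n = 3, exact permutation p = 1.0). The ratio of MT-ND3 to MT-ND4L, the subunit gene on its other side, was 0.760, 0.680 and 0.685 in si-CN and 0.557, 0.567 and 0.549 in si-N6AMT1, without overlap (exact permutation p = 0.1, or 0.3 after Benjamini-Hochberg adjustment over the 6 ratios computed).

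**Figure D2:**
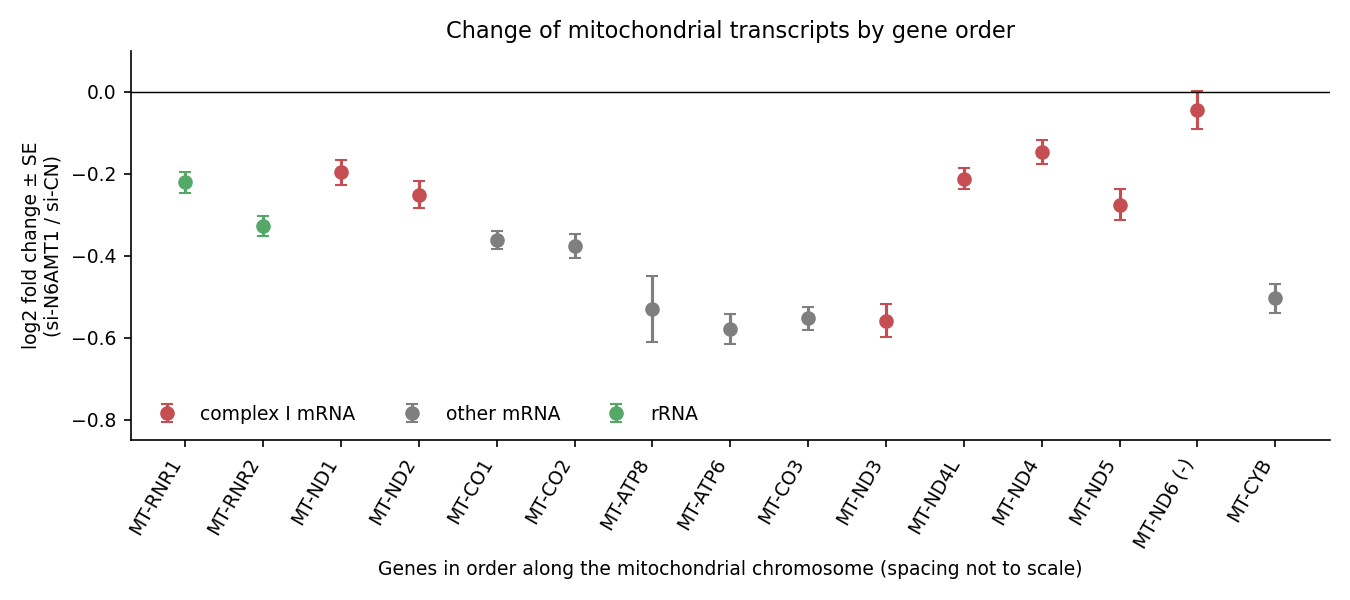
Log2 fold change (vertical axis, si-N6AMT1 over si-CN, bars ± SE) of the mitochondrial rRNAs and mRNAs in their order along the chromosome, with complex I mRNAs in red, other mRNAs in grey and rRNAs in green. MT-ATP8, MT-ATP6, MT-CO3 and MT-ND3 form a run from -0.58 to -0.53, next to MT-ND4L at -0.21, and MT-ND6 is the gene whose bar reaches 0.

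The members were then compared with the other 6 mitochondrial mRNAs, MT-CYB, MT-CO1, MT-CO2, MT-CO3, MT-ATP6 and MT-ATP8. These were all downregulated, and their median log2 fold change was -0.52, beside -0.21 for the members. The share of the 13 mitochondrial mRNA counts that belonged to complex I was 36.3%, 36.1% and 35.9% in si-CN and 39.1%, 39.7% and 38.9% in si-N6AMT1. Every knockdown library was above every control library, by 3.13 percentage points between the means of 36.1% ± 0.224 and 39.2% ± 0.391 (SD, n = 3, exact permutation p = 0.1). The other 6 mRNAs fell from 1.71% ± 0.0582 to 1.31% ± 0.0373 of all counts.

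To test each member against this reference, the fit was repeated with the summed counts of the other 6 mRNAs as the library size, so that a log2 fold change of 0 means a change equal to theirs. MT-CO1 made up 63.8% to 66.0% of that reference. Relative to it, 6 members were higher and 1 was lower. On the same scale 74.8% of all genes tested were higher, with a median of 0.40, and 0.254% were lower. The count of higher members is therefore near the background. The median over the members was 0.18. The groups did not overlap for any member on this scale, with the same 6 higher, as were 75.7% of all genes. MT-ND6 was 27.3% higher relative to the reference, a log2 fold change of 0.35 (SE 0.0467, edgeR FDR = 6.42e-09 in this fit). Its counts were 1.93%, 1.79% and 1.74% of the reference in si-CN and 2.21%, 2.35% and 2.39% in si-N6AMT1, with no overlap. MT-ND4 was 18.7% higher (log2 fold change 0.25, SE 0.0355, edgeR FDR = 3.12e-08). MT-ND4 counts were 23.4%, 23.9% and 22.6% of the reference in si-CN and 27.4%, 28.2% and 27.3% in si-N6AMT1. MT-ND1 at 0.20, MT-ND4L at 0.18 and MT-ND2 at 0.14 were called as well. MT-ND5 was higher by 0.12 (edgeR FDR = 0.00877), and this call was lost without si-CN replicate 2, where the value was 0.071 (FDR = 0.155).

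MT-ND3 was the member that lay below the reference, by a log2 fold change of -0.16 (SE 0.0466, 95% interval -0.26 to -0.069, edgeR FDR = 0.00169 in the relative fit). Its counts were 2.15%, 2.05% and 1.99% of the reference in si-CN and 1.89%, 1.91% and 1.73% in si-N6AMT1. The groups did not overlap, which held for 0.364% of all genes tested in this direction, but they were close. The call was lost without MT-CO1 in the reference (-0.10, FDR = 0.0970), with the mean of log2 counts in place of the sum (-0.072, FDR = 0.294) and without si-N6AMT1 replicate 3 (-0.12, FDR = 0.0549). Being lower on this scale was not particular to MT-ND3. Of the mRNAs in the reference, MT-ATP6 at -0.19, MT-CO3 at -0.16 and MT-CYB at -0.11 were also called lower by edgeR. MT-ATP8 at -0.14, MT-CO1 at 0.033 and MT-CO2 at 0.018 were not called.

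**Figure D3:**
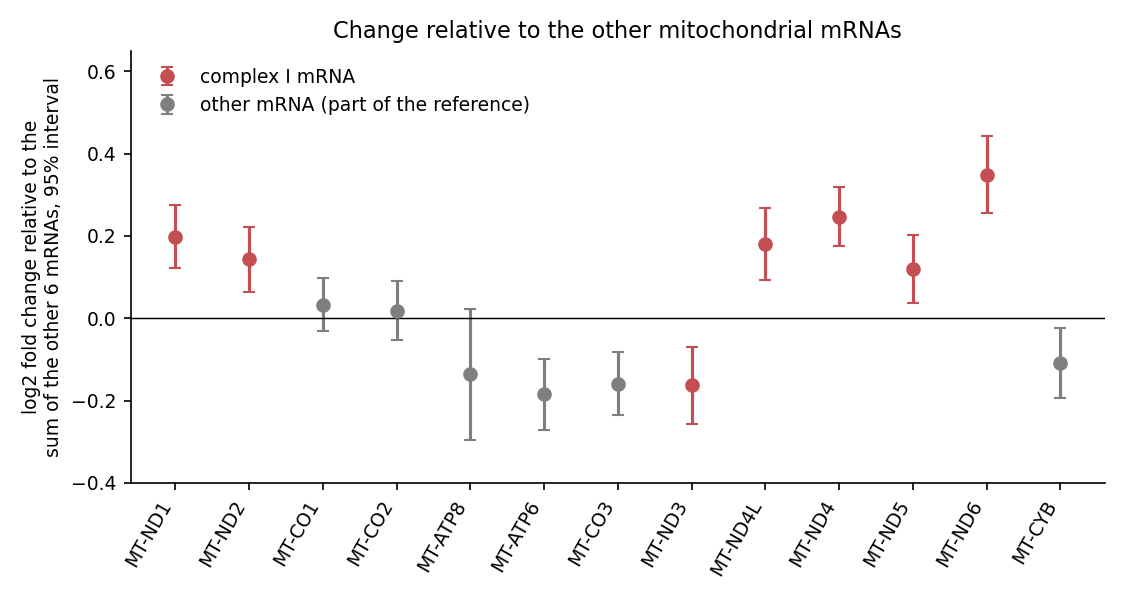
Log2 fold change relative to the summed counts of the other 6 mitochondrial mRNAs (vertical axis, bars 95% intervals) for the 13 mRNAs in chromosome order, with complex I members in red and the mRNAs of the reference in grey. The members run from -0.16 for MT-ND3 to 0.35 for MT-ND6, and MT-ND3 is the member below 0.

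The make-up of the complex I transcripts was compared by the share of each member in the counts of the 7, which removes what they have in common. MT-ND3 took 3.77%, 3.64% and 3.55% in si-CN and 2.95%, 2.90% and 2.72% in si-N6AMT1, and MT-ND2 went from 11.8% ± 0.151 to 11.4% ± 0.141 (SD, n = 3). Both were lower in every knockdown library. MT-ND4 took 41.2% ± 0.953 and 42.8% ± 0.117, and MT-ND6 took 3.22% ± 0.148 and 3.59% ± 0.155, and both were higher in every knockdown library. The exact permutation test gave p = 0.1 for each of these 4 members, or 0.175 after adjustment over the 7 shares, so none could pass 0.05. For MT-ND1, MT-ND4L and MT-ND5 the libraries of the groups overlapped. Since the shares add up to the whole, they are not independent.

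Pairs of members were set against each other in the same way. The partners on 1 mRNA, MT-ND4L and MT-ND4, had a count ratio of 0.125 ± 0.00405 in si-CN and 0.120 ± 0.00396 in si-N6AMT1 (SD, n = 3), with overlap (exact permutation p = 0.2). The partners that meet on opposite strands did not overlap between groups. The ratio of MT-ND6 to MT-ND5 was 0.221, 0.220 and 0.186 in si-CN and 0.234, 0.250 and 0.247 in si-N6AMT1 (exact permutation p = 0.1, or 0.3 adjusted over 6 ratios). MT-ND2 to MT-ND1, neighbours apart from tRNA genes, and MT-ND5 to MT-ND4 overlapped between groups.

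Levels between genes were compared per kb of annotated transcript. In si-CN cells, MT-ND4 was highest with 2904 ± 141 CPM per kb (SD, n = 3), followed by MT-ND1 with 1974 ± 97.1 and MT-ND4L with 1686 ± 31.8. MT-ND2 had 1101 ± 64.8 and MT-ND3 had 1026 ± 77.5 CPM per kb, and these neighbours in the order overlapped between libraries. MT-ND5 at 829 ± 66.8 and MT-ND6 at 596 ± 55.4 CPM per kb were the lowest. The other neighbours in this order did not overlap over the 3 control libraries. The highest member was 4.87 times the lowest. Although MT-ND4L and MT-ND4 are known to share an mRNA, their levels per kb differed in every library, and how far a transcript of 297 bases is undercounted was not tested. The order by mean was the same in si-N6AMT1 cells, but MT-ND3 came down to 697 ± 37.6 CPM per kb, overlapping with MT-ND5 at 685 ± 26.1, and the ratio between them went from 1.24 to 1.02. Among all 13 mitochondrial mRNAs in si-CN cells, MT-CO1 and MT-CO2 were above every member with 7179 and 4655 CPM per kb, and MT-ATP8 was below every member with 138 CPM per kb. MT-ATP8 has 207 bases, and how far so short a gene is undercounted was likewise not tested.

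**Figure D4:**
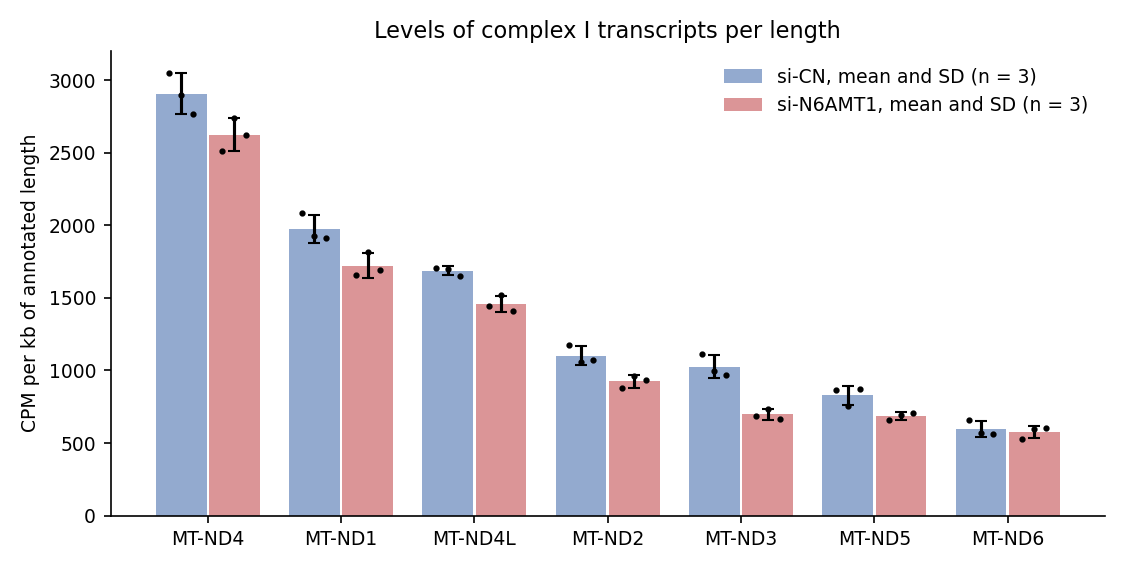
Level of the 7 complex I mRNAs in CPM per kb of annotated length (vertical axis from 0), with bars for the mean and SD of 3 si-CN and 3 si-N6AMT1 libraries and a point for each library. MT-ND4 is highest at 2904 CPM per kb in si-CN, MT-ND6 is lowest at 596, and MT-ND3 at 697 lies beside MT-ND5 at 685 in si-N6AMT1.

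Copies of mitochondrial genes lie in the nuclear genome and can draw reads from the members. The table lists 218 copies of the 7 genes, and in 53 of them at least 1 library held a count. Their counts summed to 543, or 0.0493% of the 1100360 counts of the members, and to at most 0.159% for any member, MT-ND2. The 2 copies that passed the filter are on chromosome 1. MTND2P28 (chr1:565020-566063, plus strand) is 98.4% identical to MT-ND2 over 1042 aligned bases and had 35, 36 and 38 counts in si-CN and 26, 32 and 26 counts in si-N6AMT1 (log2 fold change -0.38, SE 0.206, edgeR FDR = 0.217). MTND1P23 (chr1:564442-564813, plus strand) is 98.6% identical to MT-ND1 over 365 bases. It had 29, 23 and 29 counts in si-CN and 14, 31 and 31 counts in si-N6AMT1 (log2 fold change -0.10, edgeR FDR = 0.852). Adding the copies to their members changed no call.

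The rest of complex I comes from the nucleus, and few of its mRNAs were downregulated. Of the 37 nuclear subunits tested, 1 was downregulated (2.70%, against 11.5% of all genes) and 9 were upregulated (24.3%, against 9.78%). Their log2 fold changes ran from -0.16 to 0.23 around a median of 0.061, and the difference from the members was not tested. Among the 7 nuclear core subunits, which carry the flavin, the iron-sulfur clusters and the NADH site, NDUFS1 was downregulated, from 69.9 ± 2.33 to 62.6 ± 1.92 CPM (log2 fold change -0.16, SE 0.0361, edgeR FDR = 0.00243). NDUFS3 at 0.13 (edgeR FDR = 0.0161, with groups that overlapped) and NDUFV2 at 0.13 (edgeR FDR = 0.0486) were among the upregulated core subunits. DESeq2 called 0 core subunits upregulated. Among the 30 supernumerary subunits, 6 were upregulated and 0 downregulated by edgeR, with 1 lower at an unadjusted p under 0.05 and 0 by DESeq2. NDUFA3 had the smallest FDR of these, at 0.23 on the log2 scale (SE 0.0493, edgeR FDR = 0.00166), before NDUFS5 at 0.17 and NDUFA13 at 0.13. The count of 9 upregulated subunits was not stable. It was 2 by DESeq2, 4 without si-CN replicate 3, 2 without si-N6AMT1 replicate 2 and 5 without si-N6AMT1 replicate 3, and the downregulated count was 1 in each of these.

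**Figure D5:**
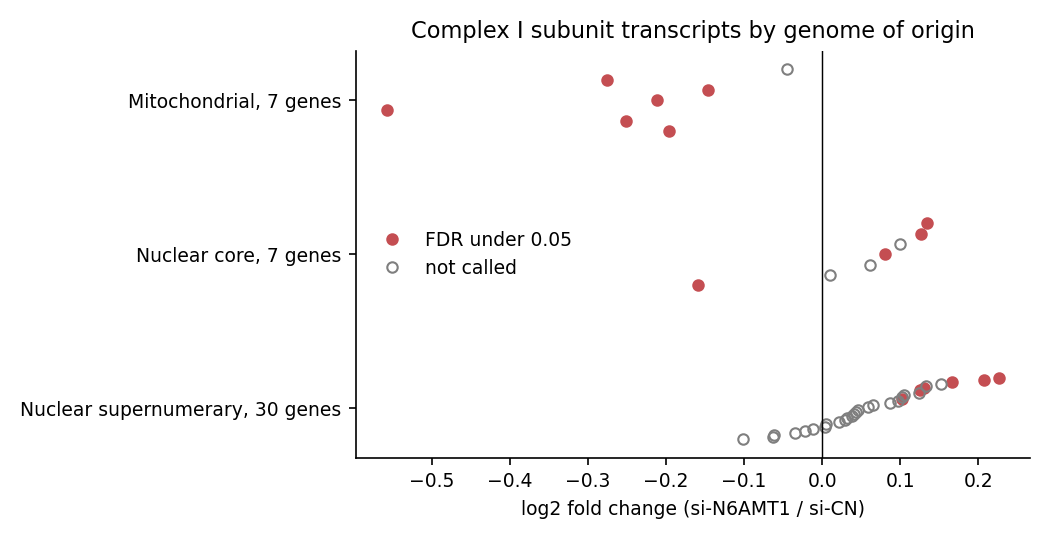
Log2 fold change (horizontal axis) of every complex I subunit mRNA tested, in 3 rows for the mitochondrial members, the 7 nuclear core and the 30 nuclear supernumerary subunits, with those at an FDR under 0.05 filled. Height within a row only separates the points. The members lie from -0.56 to -0.045 and the nuclear subunits from -0.16 to 0.23.

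Of the 18 complex I assembly factors tested, 0 were downregulated by edgeR (1 at an unadjusted p under 0.05, 0 by DESeq2) and 2 were upregulated, or 11.1% against 9.78% of all genes, which is near the background. Their median log2 fold change was 0.035. COA1 had a log2 fold change of 0.13 (edgeR FDR = 0.00696) and ECSIT had 0.20 (FDR = 0.0149). Neither was called by DESeq2. Without si-N6AMT1 replicate 1, 1 assembly factor was downregulated and 1 upregulated, and without si-N6AMT1 replicate 2, 1 was upregulated.

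Among 18 nuclear genes for mitochondrial transcription and RNA handling, 3 were downregulated (16.7%, against 11.5% of all genes) and 2 upregulated (11.1%, against 9.78%), both near the background, with a median log2 fold change of -0.018. TFAM, which packages mitochondrial DNA and is needed to start its transcription, fell from 78.0 ± 0.646 to 55.4 ± 1.79 CPM (SD, n = 3), a log2 fold change of -0.49 (SE 0.0343, edgeR FDR = 3.67e-10). MTPAP, the mitochondrial poly(A) polymerase, had -0.20 (edgeR FDR = 0.0308) and FASTKD5, which is needed to mature mRNAs at borders without a tRNA, had -0.19 (FDR = 0.0465). FASTKD1, a protein of the same family, had 0.20 (edgeR FDR = 0.00295), and SLIRP, a partner of LRPPRC in mRNA stability, had 0.14 (FDR = 0.00942). Of these, DESeq2 called 1 downregulated and 0 upregulated. The downregulated count was 1 without si-CN replicate 3, without si-N6AMT1 replicate 2 or without si-N6AMT1 replicate 3, and the upregulated count was 1 without si-CN replicate 3 or si-N6AMT1 replicate 2. The part of these genes in the members' levels was not tested.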

How the data were processed

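Libraries were prepared by the authors with a TruSeq stranded mRNA kit. Paired-end reads were trimmed (Trim Galore v0.6.5) and quantified against GENCODE v33 on hg19 (kallisto v0.46.0). What the authors deposited is the gene-level sum of these estimated counts, as whole numbers and not normalized. The authors' own test was DESeq2. Gene positions and sequences were read from GENCODE v44 on GRCh37, in which 62149 of 62438 gene identifiers had a symbol.

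In R v4.3.3, edgeR v4.0.16 was applied to the counts of 3 si-N6AMT1 and 3 si-CN libraries, using the quasi-likelihood test with TMM scaling, the expression filter at a minimum count of 10 (17320 genes), no covariate, and FDR as the Benjamini-Hochberg adjusted p over all genes tested, with a threshold of 0.05. The relative fit used the summed counts of the other 6 mitochondrial mRNAs as library size. Shares and ratios were compared by exact two-sided permutation over libraries. Copies were aligned to their members with Python v3.11.15. The procedure was tested on simulated data. Library pairs differed by 1.35 to 1.69 (chi-square per degree of freedom) within groups and 6.07 to 6.86 between groups. No library was therefore an identical copy of another, which does not show that they came from separate cultures. Totals of 19739247 to 21289740 counts make counting error small for the members, and low counts of copies imprecise.

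Genes named were all members, the other mitochondrial mRNAs and rRNAs, N6AMT1, nuclear copies that passed the filter (at most 3), up to 3 genes per list and direction with the smallest FDR, and 5 nuclear genes most correlated with the members. The members and lists were chosen with earlier results of these data known. Alternatives were RLE size factors, DESeq2 v1.42.0, limma-voom (limma v3.58.1), no filter, mitochondrial genes left out of scaling, members with copies, other references, no division by length, a replicate block and each library left out. A reference of MT-ATP8, MT-ATP6 and MT-CO3, and one without MT-CO1, were added after the data had been seen. FASTKD4 was found under TBRG4, and PECAM1 was not matched. A few listed genes are not reported here by name and stay in the counts and sums over their lists. The 6mA immunoprecipitation was not analysed here.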

Additional observations from a re-analysis of the deposited data

How the results depend on the processing

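The count of 6 downregulated members held under every alternative named for it, with log2 fold changes from -0.24 to -0.16 for MT-ND1, -0.28 to -0.20 for MT-ND2, -0.60 to -0.49 for MT-ND3, -0.18 to -0.11 for MT-ND4, -0.24 to -0.19 for MT-ND4L and -0.34 to -0.24 for MT-ND5 with 1 library left out. The weakest call was MT-ND4 by DESeq2, at an FDR of 0.045. DESeq2 gave a larger SE than edgeR for every member. For MT-ND1 it was 0.0573 against 0.0306, for MT-ND6 0.0901 against 0.0466 and for MT-ND4L 0.0290 against 0.0252. The SE by limma-voom was 0.0286 for MT-ND1 and 0.0479 for MT-ND6. The intervals printed here are those of edgeR. MT-ND6 ranged from -0.089 to 0.033 with 1 library left out, and was above 0 without si-CN replicate 1 (0.033) and without si-N6AMT1 replicate 1 (0.013). DESeq2 called 1136 genes down and 796 up over all genes, where edgeR called 1993 and 1694. DESeq2 called 2 nuclear subunits upregulated, 0 assembly factors upregulated, and 1 RNA handling gene downregulated and 0 upregulated. With 1 library left out, nuclear subunits upregulated ranged from 2 to 12, assembly factors from 0 to 1 down and 1 to 2 up, and RNA handling genes from 1 to 2 down and 1 to 2 up. In the relative fit, MT-ND3 was at -0.072 with the mean of log2 counts as reference, at 0.0031 against MT-ATP8, MT-ATP6 and MT-CO3 (chosen once their falls had been seen to be like its own, so no independent check), at -0.10 without MT-CO1, and from -0.19 to -0.12 with 1 library left out. The number of members lower was accordingly 0 under each of these 3 references and 0 to 1 with 1 library left out, and MT-ND5 ranged from 0.071 to 0.17. Among shares within the 7, MT-ND1 ranged from -0.0700 to 0.256 and MT-ND4L from -0.145 to 0.0493 percentage points with 1 library left out. Without division by length, MT-ND3 ranked 6, MT-ND4L 5 and MT-ND5 3 among the members, as the alternative's construction gives. Apart from the last, the cause of these changes was not tested. Replicate numbers are shared by the labels of both groups. The deviations of same-numbered libraries correlated at -0.119, -0.0888 and 0.0065, and 0 of 6 libraries correlated best with its own number. This gave no sign of pairing, but small deviations from means of 3 libraries cannot exclude it. With the replicate block, 6 members were downregulated, 1804 genes were down and 1522 up, 7 nuclear subunits were upregulated, and MT-ND5 in the relative fit was at 0.12 (FDR = 0.0509 from edgeR).

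With 3 libraries a group, no exact permutation test can go below 0.1. Poly(A) selection applied to every transcript counted here, MT-ND6 and the rRNAs included, and its part in the changes was not tested. The untested counting of reads at gene borders, the use of estimated counts and the unstated strand option further limit what MT-ND6, MT-ND4L and the nuclear copies can show.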

Other observations

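The mitochondrial tRNA genes are mostly out of reach of these libraries, and 2 of the 22 passed the filter, both encoded on the minus strand as MT-ND6 is. MT-TP had 67.1, 63.2 and 65.9 CPM in si-CN and 54.5, 53.5 and 52.5 CPM in si-N6AMT1, with no overlap and a log2 fold change of -0.29 (SE 0.0361, edgeR FDR = 2.66e-06). MT-TC, with 11 to 22 counts per library, was at 0.23 (SE 0.336, FDR = 0.700). Without the strand option, reads of these genes and reads from the opposite strand cannot be told apart.

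The 5 nuclear genes whose log2 CPM followed the summed level of the members most closely over the 6 libraries were EPHA1-AS1 (Pearson r 0.999), EEF1G (0.996), CA12 (0.995), UMAD1 (0.993) and CHAF1B (0.992). They were chosen from 17222 genes, of which 555 had an r over 0.9. The points share 2 groups of 3 libraries, so the correlation is a description that mixes the group difference with the spread between libraries. EPHA1-AS1 was at 0.596 CPM in si-CN and 0.444 CPM in si-N6AMT1 and was not called (FDR = 0.462 from edgeR). EEF1G, a subunit of translation elongation factor complex eEF1B, had a log2 fold change of -0.12 (FDR = 0.00021 from edgeR).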
